A study of Homo sapiens with 88 samples.

Results

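FOS, FOSB, FOSL2, JUN, JUNB, JUND, EGR1, ATF3, DUSP1 and IER2 are immediate early genes or close relatives of them in the AP-1 family. They were chosen by gene name, with earlier results of these data known. Every probe set annotated to 1 of these genes alone was taken, which gave 26 of 41091 single-gene probe sets and 10 of 19775 genes on the array. All 26 passed the filter on dim probe sets. FOSL2 had 5 of them, JUN and JUND 4 each, EGR1, ATF3 and DUSP1 3 each, and the other genes 1 each.

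Immediate early genes are transcribed within minutes of a stimulus such as serum, a growth factor or stress, without the synthesis of new protein, and their transcripts are short-lived. Proteins of the FOS and JUN families pair through leucine zippers to form the transcription factor AP-1. Serum response factor bound at CArG boxes and CREB family factors bound at TGACG elements are known activators of such promoters, and mitogen-activated protein kinases act upstream of both.

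The series holds 88 Affymetrix HG-U133 Plus 2.0 arrays of total RNA from 9 human small cell lung cancer (SCLC) lines, deposited as log2 signals per probe set. Cells labelled 552A were set against cells given the vehicle DMSO, and the study's treatment notes name 1 uM GSK2879552, which blocks LSD1, a histone demethylase, or DMSO, and do not say which compound 552A stands for. Day 4 was the single time for H1417, H2171 and H69. The times were days 2, 4 and 7 for NCI-H446, NCI-H146, SHP-77, COLO668, NCI-H510 and NCI-H526. Each of these 21 line and day settings had 552A arrays and DMSO arrays, in 39 groups of 2 arrays, 2 groups of 3 and 1 group of 4. All cells grew in RPMI with 10% fetal bovine serum. Each line is an established culture from 1 tumour, and no label says whether the replicates within a group were separate cultures, or which were harvested together, so the spread between arrays may be technical. The study's design speaks of sensitive and resistant lines, and no label assigns a line to either.

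The neuroendocrine markers INSM1 and CHGA were bright in every group. Group means of INSM1 were 12.6 to 13.8 in 552A cells and 12.3 to 13.8 in DMSO cells. The neuroendocrine marker SYP was not, at 7.36 to 8.13 in 552A cells and 7.59 to 8.19 in DMSO cells. The tuft-like marker POU2F3 ranged up to 12.4 in 552A cells and 12.6 in DMSO cells, both in NCI-H526. The leukocyte marker PTPRC stayed at or below 6.61 in 552A cells and 5.46 in DMSO cells, and CD3E reached 7.95 and 8.06. The fibroblast gene COL1A2 reached 11.8 in 552A cells and 12.0 in DMSO cells of H69. COL1A1, COL3A1 and DCN reached no more than 7.15 in 552A cells and 7.20 in DMSO cells. The endothelial gene CDH5 reached 11.6 in 552A cells and 11.5 in DMSO cells of NCI-H446. PECAM1 and VWF reached 8.68 and 7.85 in 552A cells and 8.50 and 7.97 in DMSO cells. Array medians ran from 7.36 to 7.46. In 5 day 7 arrays the 3′ over 5′ signal of ACTB, a measure of RNA integrity, was high: 0.893 and 0.880 log2 units in SHP-77 552A replicates 1 and 2, 1.67 in SHP-77 DMSO replicate 1, 1.34 in COLO668 552A replicate 2 and 1.11 in COLO668 DMSO replicate 1. NCI-H446 DMSO day 4 replicate 2 had a narrow interquartile range of 2.56. The gene lists, the F test of each gene and the DMSO levels between lines are given with all arrays only. Most other calls named below that use these 6 arrays are given with and without them. Without them the SHP-77 DMSO group and both COLO668 groups at day 7 hold 1 array each, which the fit takes to vary like the other groups.

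The promoters of 5 of the genes are shown because these genes carry the results below: FOSL2 for its response to 552A, and FOS, EGR1, IER2 and DUSP1 for their shared movement across days and replicates. Each is the run of 250 bases up to the RefSeq start of the gene in GRCh38, 5′ to 3′ on the gene's strand, which is minus for DUSP1 and plus for the others. Capitals mark TGACG or its reverse complement CGTCA, the palindrome TGACGTCA that contains both, CArG boxes (CC, 6 A or T, GG) and TATAAA.

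FOS chr14:75278578-75278827: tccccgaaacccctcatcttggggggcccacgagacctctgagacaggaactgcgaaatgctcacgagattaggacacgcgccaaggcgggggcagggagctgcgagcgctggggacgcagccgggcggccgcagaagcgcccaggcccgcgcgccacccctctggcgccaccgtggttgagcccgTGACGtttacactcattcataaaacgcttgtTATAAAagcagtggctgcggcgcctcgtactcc

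FOSL2 chr2:28392608-28392857: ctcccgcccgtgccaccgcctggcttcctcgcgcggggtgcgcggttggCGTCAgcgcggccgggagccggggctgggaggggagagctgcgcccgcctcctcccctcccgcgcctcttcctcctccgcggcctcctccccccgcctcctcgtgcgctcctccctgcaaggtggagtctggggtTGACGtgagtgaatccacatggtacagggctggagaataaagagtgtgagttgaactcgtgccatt

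EGR1 chr5:138465229-138465478: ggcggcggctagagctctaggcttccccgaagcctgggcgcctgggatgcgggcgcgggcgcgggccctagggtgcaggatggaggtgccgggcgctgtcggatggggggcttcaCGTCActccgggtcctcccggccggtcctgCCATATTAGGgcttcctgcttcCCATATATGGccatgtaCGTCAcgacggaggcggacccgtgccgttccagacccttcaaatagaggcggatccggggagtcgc

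DUSP1 chr5:172771196-172771445: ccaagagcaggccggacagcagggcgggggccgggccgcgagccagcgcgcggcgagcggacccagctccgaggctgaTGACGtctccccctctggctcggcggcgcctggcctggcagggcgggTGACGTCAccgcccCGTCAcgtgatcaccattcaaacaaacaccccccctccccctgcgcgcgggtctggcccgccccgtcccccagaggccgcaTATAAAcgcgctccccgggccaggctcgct

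IER2 chr19:13150161-13150410: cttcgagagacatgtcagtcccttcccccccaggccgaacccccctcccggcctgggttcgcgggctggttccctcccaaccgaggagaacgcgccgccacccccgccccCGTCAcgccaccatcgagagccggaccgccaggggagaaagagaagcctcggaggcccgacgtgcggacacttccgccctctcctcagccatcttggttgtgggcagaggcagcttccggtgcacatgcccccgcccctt

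TGACG, searched on both strands, was found in this window for 9 of the 10 genes, all but ATF3, and in 21.2% of 35116 RefSeq promoters. It lay 64 to 60 bases before the start in FOS, 60 to 56 bases before in FOSB, and 66 to 62 bases before in FOSL2 and EGR1. The full palindrome TGACGTCA was present in DUSP1 and JUND and in 1.65% of promoters. Within these 250 bases CArG boxes were found in EGR1 alone, at 105 to 96 and 83 to 74 bases before the start, and in 1.16% of promoters. Bases further upstream were not searched, so a box there would be missed in the other genes. TATAAA was present in FOS, FOSB, JUNB, ATF3 and DUSP1, against 10.7% of promoters, and the AP-1 element TGANTCA in none of the 10, against 6.57%. These matches describe letters in the window and say nothing of binding.

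Calls below come from limma on log2 signal over all 88 arrays, with Benjamini-Hochberg adjustment within each comparison and a threshold of 0.05. Errors of differences are standard errors from that fit. In bulk RNA a change in the share of cells that express a gene and a change in RNA per cell cannot be told apart. For each gene the lead probe set is the one with the highest mean signal, with cross-hybridising types (_x_at) set aside. Over the 21 line and day settings, 552A minus DMSO was called higher in 12 and lower in 4 of 546 tests of the 26 probe sets, with 52 at an unadjusted p under 0.05, where 4.48% of all tests were called. The calls fell on 4 genes. FOSL2 had 10 of the higher calls, FOS and ATF3 had 1 each, JUND had 3 of the lower calls and ATF3 had 1. FOSB, JUN, JUNB, EGR1, DUSP1 and IER2 had no call at any line and day. Averaged over days within each line, 10 of 234 tests were higher and 3 lower, against 8.27% of all tests called. With the line as the replicate at day 4, limma called none of the 26 across the 9 lines, 5 had an unadjusted p under 0.05, and 0.00338% of all probe sets, which is 1 probe set, were called.

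**Figure D1:**
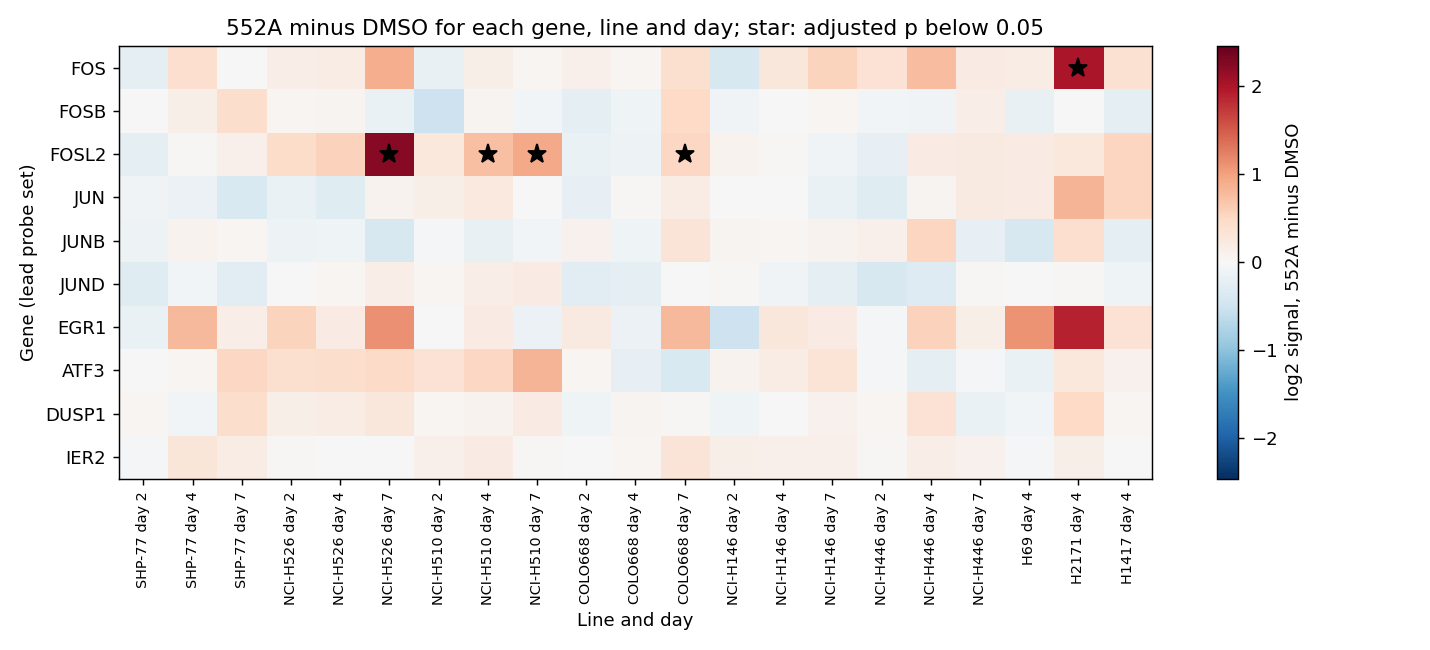
Heat map of the log2 difference, 552A minus DMSO, for the lead probe set of each gene (rows) in each of 21 line and day settings (columns). Stars mark an adjusted p below 0.05: FOSL2 in NCI-H526 at day 7, NCI-H510 at days 4 and 7 and COLO668 at day 7, and FOS in H2171 at day 4.

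FOSL2 encodes FRA2, an AP-1 subunit of the FOS family that lacks the strong transactivation domain of FOS. In NCI-H526 its lead probe set 225262_at read 5.90, 6.04 and 5.83 in 552A cells and 5.38 and 5.57 in DMSO cells at day 2, then 6.69 and 6.53 in 552A cells and 6.00 and 6.11 in DMSO cells at day 4. At day 7 it read 7.71 and 8.28 in 552A cells, against 6.13 and 5.39 in DMSO cells. The 552A arrays were above the DMSO arrays at every day, with no overlap, and the gap was widest at day 7. There FOSL2 was 4.71-fold higher (log2 2.23 ± 0.19, adjusted p = 8.98e-14), and 9.35% of all probe sets were called in that comparison. At day 4 the difference was 0.56 and missed the threshold (adjusted p = 0.084). The probe set was dim in this line. Its DMSO values at every day, and its 552A values at days 2 and 4, lay below 7.41, the median of all values.

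In NCI-H526, 228188_at and 218880_at were called higher too. At day 4, 228188_at read 7.06 and 7.07 in 552A cells and 6.08 and 5.85 in DMSO cells, 2.14-fold higher (adjusted p = 1.17e-05), where 4.57% of all probe sets were called. At day 7 it read 7.87 and 8.24 in 552A cells and 6.28 and 6.22 in DMSO cells, 3.49-fold higher (adjusted p = 1.66e-11). Neither day overlapped. For 218880_at the day 7 values were 6.68 and 6.91 in 552A cells and 5.66 and 5.93 in DMSO cells, 2.00-fold higher (adjusted p = 0.000123). All of these 218880_at values were dim, below the median of all values, 7.41. So were those given for 228188_at, apart from the 552A values at day 7. Probe sets 205409_at and 218881_s_at, whose highest array values were 8.28 and 7.88, had no call in any line. Averaged over days, the lead probe set was 2.12-fold higher in NCI-H526 (log2 1.08 ± 0.11, adjusted p = 4.47e-12), against 17.5% of probe sets called, and stayed between 0.96 and 1.20 with each array of the line left out.

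In NCI-H510 FOSL2 was also higher with 552A, by less. The lead probe set read 8.14 and 8.04 in 552A cells and 7.34 and 7.36 in DMSO cells at day 4, and 8.15 and 8.07 in 552A cells and 7.36 and 7.01 in DMSO cells at day 7. The arms did not overlap at either day, and the DMSO values lay below 7.41, the median of all values. The day 4 difference was 1.67-fold (adjusted p = 0.0109, 3.66% of all called) and the day 7 difference 1.90-fold (adjusted p = 0.000496, 4.95% of all called). At day 2 the values were 7.91 and 8.03 in 552A cells and 7.73 and 7.70 in DMSO cells, with no call. Averaged over days the difference was 0.64 ± 0.11 (adjusted p = 9.15e-06), against 12.7% of all called, and 228188_at and 218880_at gave 0.71 (adjusted p = 3.06e-07) and 0.42 (adjusted p = 0.00486). The day 4 call was lost with any 1 of its 4 arrays left out, the differences then being 0.68 without 552A replicate 1, 0.79 without 552A replicate 2, 0.73 without DMSO replicate 1 and 0.75 without DMSO replicate 2. The day 7 call was lost without DMSO replicate 2 (0.75, adjusted p = 0.0611).

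Elsewhere the FOSL2 response was smaller or depended on single arrays. In H1417, 228188_at read 8.18 and 8.58 in 552A cells and 7.54 and 7.58 in DMSO cells, 1.76-fold higher (adjusted p = 0.00103, 7.05% of all called). Without 552A replicate 2 it was 0.62 with an adjusted p of 0.0961, and with H1417 fitted alone the adjusted p was 0.0972. The lead probe set, at 7.998 and 8.80 in 552A cells and 7.69 and 8.05 in DMSO cells, overlapped and was not called (0.53, adjusted p = 0.0785). In COLO668 at day 7 the lead probe set read 9.41 and 9.54 in 552A cells and 8.98 and 8.96 in DMSO cells, 1.42-fold higher (adjusted p = 0.0448), where 22.7% of all probe sets were called. That call was lost without the arrays of high ACTB ratio (0.45, adjusted p = 0.161), and also without COLO668 552A replicate 1 (0.57) or replicate 2 (0.44) or DMSO replicate 1 (0.52) or replicate 2 (0.49). The means over days of the lead probe set were not called in SHP-77 (-0.03), COLO668 (0.07), NCI-H146 (0.01) or NCI-H446 (0.07), and the day 4 differences in H69 (0.21) and H2171 (0.25) were not called either.

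A limma F test over the 6 lines with 3 days asked whether the 552A response itself differed between lines. It was called for 7 of the 26 probe sets, on FOSL2, JUND and ATF3, against 31.8% of all probe sets. For FOSL2 the adjusted p was 6.52e-09 at the lead probe set, 1.31e-08 at 228188_at and 0.00395 at 218880_at. NCI-H526, the line with the largest response, had the lowest DMSO level at day 4 (6.05), and H2171, with no call, the highest (9.69).

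**Figure D2:**
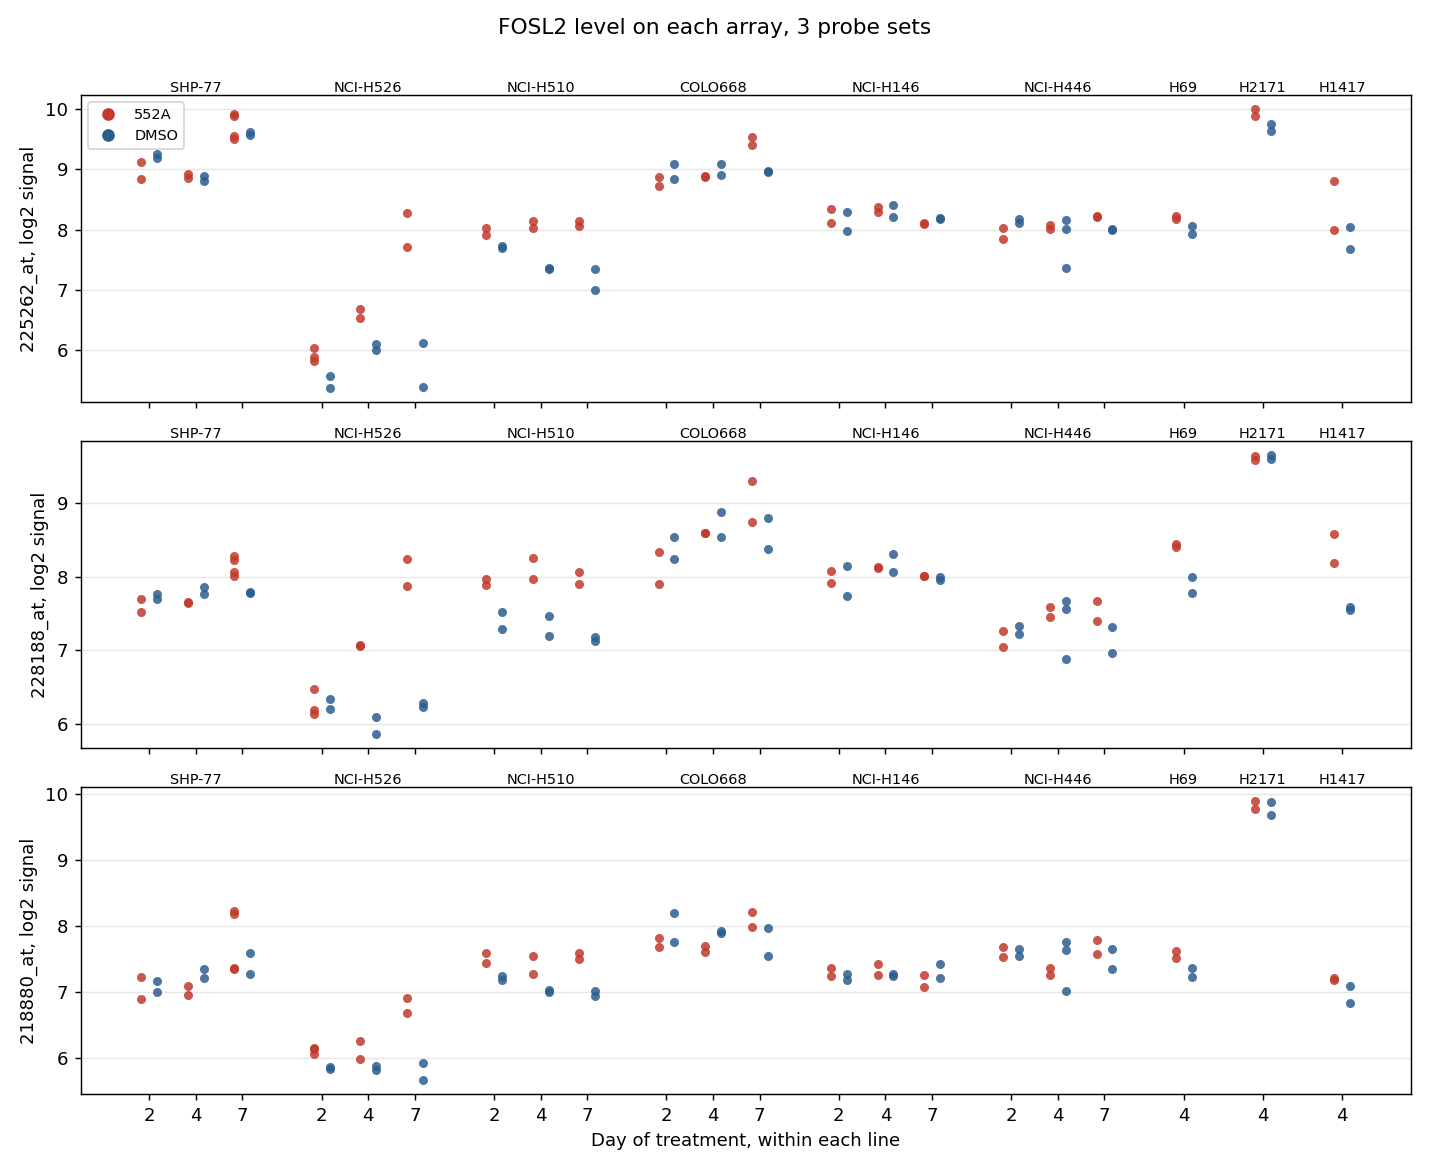
Log2 signal of 3 FOSL2 probe sets on each of the 88 arrays (points), 552A left of DMSO at each day within each line. In NCI-H526 at day 7 the 552A points of 225262_at are at 7.71 and 8.28 and the DMSO points at 6.13 and 5.39, and in NCI-H510 the arms are apart at each day.

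FOS, an AP-1 subunit and a serum-induced transcript, was called in 1 setting. In H2171 at day 4 it read 10.10 and 9.98 in 552A cells and 6.85 and 9.19 in DMSO cells. The arms did not overlap, and the DMSO arrays were far from each other. The difference was 4.04-fold (log2 2.02 ± 0.52, adjusted p = 0.0277), and 1.42% of all probe sets were called. It was 0.85 without DMSO replicate 1 (adjusted p = 0.95) and 3.19 without DMSO replicate 2 (adjusted p = 0.000722). It was 1.96 without 552A replicate 1 (adjusted p = 0.253) and 2.08 without 552A replicate 2 (adjusted p = 0.164), so the call was kept in 1 of the 4. It was lost with H2171 fitted alone (adjusted p = 0.279).

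EGR1, a zinc finger factor induced by the same kinases, read 10.23 and 9.91 in 552A cells and 7.02 and 9.35 in DMSO cells of H2171, and its difference of 1.88 was not called (adjusted p = 0.184). The same DMSO array was low for both genes. In H69, EGR1 read 8.76 and 8.47 in 552A cells and 7.54 and 7.49 in DMSO cells, without overlap, and was not called (1.10, adjusted p = 0.653). At day 4 the FOS differences of the 9 lines ran from 0.05 in COLO668 to 2.02 in H2171, with 0.76 in NCI-H446 next. With the line as the replicate they averaged 0.49 ± 0.17 (limma, unadjusted p = 0.0151, adjusted p = 0.312). Those of EGR1 ran from -0.15 in COLO668 to 1.88 in H2171 and averaged 0.58 ± 0.17 (adjusted p = 0.228). For both genes the largest difference was that of H2171, with its low DMSO array. Neither passed the test.

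FOSB, a FOS paralogue, was dim in most groups, and its differences ran from -0.51 in NCI-H510 at day 2 to 0.48 in COLO668 at day 7, none called. In NCI-H510 at day 2 it read 8.10 and 8.54 in 552A cells and 8.62 and 9.04 in DMSO cells, without overlap. In COLO668 at day 7 it read 7.63 and 9.75 in 552A cells and 8.66 and 7.75 in DMSO cells, which overlapped, and 9.75 belongs to the 552A array with a high ACTB ratio.

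JUN, the founding partner of FOS, had no call in any line. Its largest difference was in H2171, with 10.70 and 10.41 in 552A cells and 9.55 and 9.90 in DMSO cells (0.83, adjusted p = 0.101). In SHP-77 at day 7 it read 10.90, 10.78, 9.65 and 9.52 in 552A cells and 10.69 and 10.48 in DMSO cells. The 552A arrays fell in 2 pairs, and replicates 1 and 2, the higher pair, are those with a high ACTB ratio. With the 6 arrays left out, JUN was lower at SHP-77 day 7 by the lead probe set (-0.90, adjusted p = 0.00844) and by 201466_s_at (-1.07, adjusted p = 6.27e-05), against 1 remaining DMSO array with the spread taken from the other groups, and was called higher in H2171 (0.83, adjusted p = 0.00122) and H1417 (0.53, adjusted p = 0.0272).

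JUNB, which can restrain JUN, ran from -0.40 in NCI-H526 at day 7 to 0.54 in NCI-H446 at day 4, none called. In NCI-H526 at day 7 it read 8.50 and 8.25 in 552A cells and 8.77 and 8.78 in DMSO cells, without overlap. In NCI-H446 at day 4 it read 10.05 and 10.21 in 552A cells and 10.25, 8.82 and 9.71 in DMSO cells, where 8.82 belongs to the array with the narrow range.

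JUND, the most steadily expressed JUN paralogue in many cells, had small differences. Its lead probe set had no call, while the F test between the 6 lines was called (adjusted p = 0.0155), with means over days of -0.21 in SHP-77, 0.07 in NCI-H526, 0.13 in NCI-H510, -0.16 in COLO668, -0.09 in NCI-H146 and -0.22 in NCI-H446. In SHP-77 at day 7, 214326_x_at read 8.58, 8.73, 8.61 and 8.58 in 552A cells and 9.42 and 8.92 in DMSO cells, lower by 0.55 on the log2 scale (adjusted p = 0.00902), and 203751_x_at was lower by 0.43 (adjusted p = 0.0244), where 7.49% of all were called. The DMSO value of 9.42 belongs to replicate 1, whose ACTB ratio was the highest. Without the 6 arrays these differences were -0.33 (adjusted p = 0.439) and -0.30 (adjusted p = 0.333), and without that DMSO replicate alone -0.30 and -0.27. The call on 203751_x_at was also lost without 552A replicate 3 (-0.41, adjusted p = 0.0512). Averaged over days, both probe sets were called lower in SHP-77, where 6.12% of all were called. Over 8 alternative settings the averages ran from -0.30 to -0.25 for 203751_x_at and from -0.37 to -0.29 for 214326_x_at. With each SHP-77 array left out they ran from -0.35 to -0.24 and from -0.45 to -0.28, and each call was lost in at least 1 such fit. In COLO668 at day 7, 229117_s_at read 6.90 and 6.73 in 552A cells and 7.25 and 7.35 in DMSO cells, lower without overlap (-0.49, adjusted p = 0.00153), and by -0.45 (adjusted p = 0.0196) without the 6 arrays.

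ATF3, a stress-induced factor of the ATF/CREB family that also pairs with JUN, had calls in opposite directions. In NCI-H510 its lead probe set averaged 0.56 ± 0.18 higher over days (adjusted p = 0.0305), and 1554980_a_at 0.42 higher (adjusted p = 0.00502). At day 7 the lead probe set read 10.39 and 9.48 in 552A cells and 9.49 and 8.71 in DMSO cells, with a 552A array next to a DMSO array, and that day was not called. The lead call was lost in 9 of 12 fits with 1 array left out, where the difference ran from 0.41 without 552A day 7 replicate 1 to 0.58. The call on 1554980_a_at was lost in 1, without the same array (0.29, adjusted p = 0.0854).

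In SHP-77 at day 7, 1554980_a_at read 8.75, 8.79, 9.28 and 9.27 in 552A cells and 8.12 and 8.88 in DMSO cells, which overlapped (0.52, adjusted p = 0.0431). Without the 6 arrays it was 0.40 (adjusted p = 0.308), and without DMSO replicate 1 alone 0.14. In COLO668 at day 7 that probe set read 8.14 and 8.39 in 552A cells and 8.57 and 9.45 in DMSO cells, lower without overlap (-0.74, adjusted p = 0.00354), and the call was lost without 552A replicate 1 (-0.62, adjusted p = 0.0564) or DMSO replicate 2 (-0.31, adjusted p = 0.369). The lead probe set there read 8.98 and 11.54 in 552A cells and 10.84 and 10.42 in DMSO cells and was not called (-0.37). Its 552A arrays lay above and below both DMSO arrays, and 11.54 belongs to the array with a high ACTB ratio. With the 6 arrays left out, 1 array per arm remained, and the values of 8.98 in 552A cells and 10.42 in DMSO cells differed by -1.44 (adjusted p = 4.66e-05, with the spread taken from the other groups). In the same 1 against 1 setting 1554980_a_at differed by -1.31 (adjusted p = 3.78e-06).

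DUSP1, a phosphatase that switches off mitogen-activated kinases, and IER2, a nuclear early-response protein, had no call. DUSP1 differences ran from -0.17 in NCI-H446 at day 7 to 0.50 in H2171, where it read 11.14 and 11.19 in 552A cells and 10.43 and 10.91 in DMSO cells without overlap. IER2 differences ran from -0.05 in H69 to 0.32 in COLO668 at day 7. In NCI-H526 every IER2 array of both arms lay between 12.01 and 12.15.

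Several of these genes were lower at day 4 than at days 2 and 7 in SHP-77 and COLO668, as was the EGR1 lead probe set in NCI-H446. FOS, DUSP1 and IER2 in DMSO cells of NCI-H446 were high at day 7. Day 4 overlapped day 2 for DUSP1 and IER2 and lay below it for FOS. The level at day 4 was set against the mean of days 2 and 7 within each arm and line. In 552A cells 18 of 156 tests were lower and none higher, with 63 at an unadjusted p under 0.05, where 0.53% of all tests were called. In DMSO cells 23 were lower and 1 higher, with 68 at an unadjusted p under 0.05, where 1.98% of all were called. The lower calls covered 7 genes in 552A cells and 9 in DMSO cells. With the 6 arrays left out the lower calls were 26 in 552A cells and 31 in DMSO cells, and without SHP-77 DMSO day 4 replicate 1 the DMSO count was 13. The share over all probe sets is not given for these runs. Of the 42 calls of both arms, 27 were lost when each line was fitted alone and 13 with the ACTB signal as a covariate.

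FOS in SHP-77 shows the pattern. It read 11.94 and 11.40 at day 2, 9.93 and 9.87 at day 4, and 13.19, 13.31, 11.93 and 11.95 at day 7 in 552A cells. In DMSO cells it read 12.01 and 11.79 at day 2, 9.57 and 9.40 at day 4, and 12.73 and 12.43 at day 7. Every day 4 array of both arms was below every array of the other days. The day 4 level was 4.70-fold lower in 552A cells (log2 -2.23 ± 0.43, adjusted p = 0.00221) and 6.76-fold lower in DMSO cells (-2.76 ± 0.45, adjusted p = 0.000368), where 1.46% and 9.64% of all probe sets were called. The 552A call was lost without 552A day 4 replicate 1 (-2.26, adjusted p = 0.114) or replicate 2 (-2.20, adjusted p = 0.0978), and the DMSO call was kept in all fits with 1 array of the line left out. FOS was -1.91 in 552A cells and -2.68 in DMSO cells without the 6 arrays, both called.

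**Figure D3:**
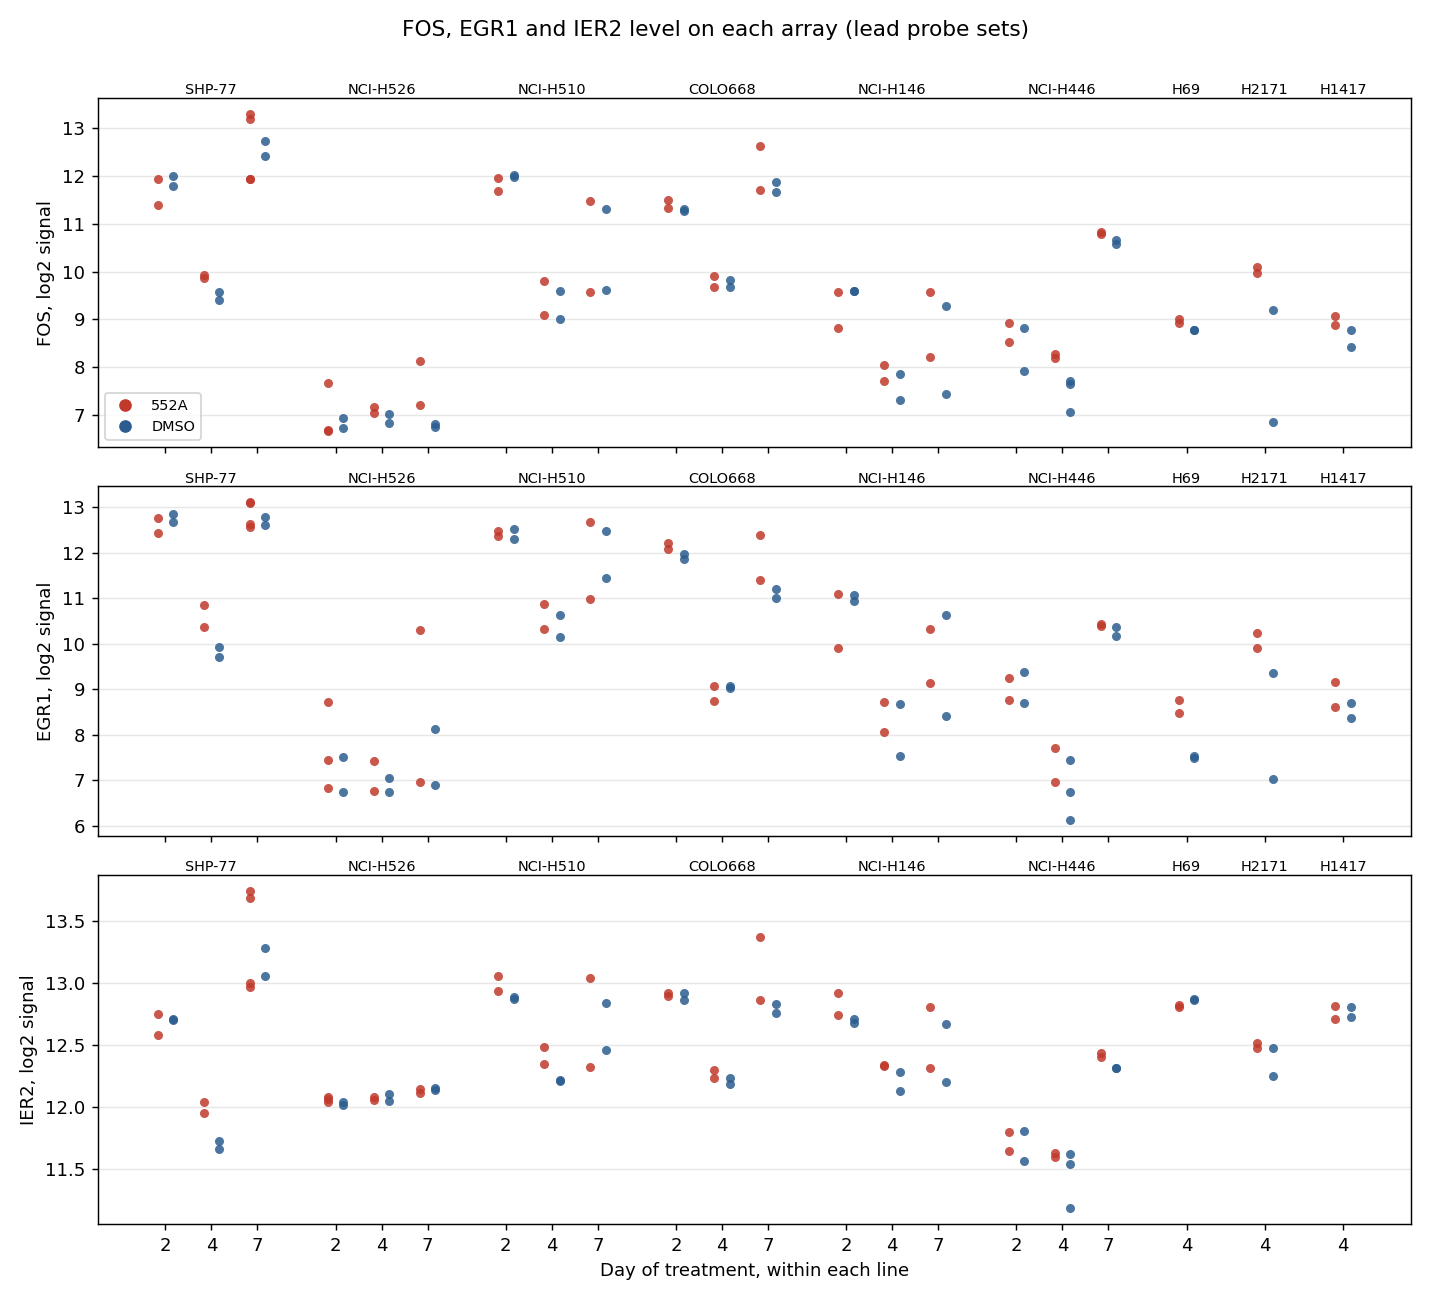
Log2 signal of the FOS, EGR1 and IER2 lead probe sets on each of the 88 arrays (points), 552A left of DMSO at each day within each line. The day 4 points lie below those of days 2 and 7 in both arms of SHP-77 and COLO668, and the H2171 DMSO points of FOS lie at 6.85 and 9.19.

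In COLO668 EGR1 read 12.22 and 12.08 at day 2, 9.07 and 8.74 at day 4, and 11.40 and 12.39 at day 7 in 552A cells. In DMSO cells it read 11.97 and 11.87 at day 2, 9.08 and 9.03 at day 4, and 11.001 and 11.20 at day 7. Day 4 was apart from the other days in both arms. The differences were -3.11 in 552A cells (adjusted p = 0.000904) and -2.45 in DMSO cells (adjusted p = 0.0426), where 0.875% and 0.132% of all were called. The 552A call was lost without 552A day 4 replicate 2 (-2.95, adjusted p = 0.0935) and was kept without the 6 arrays (-2.87, adjusted p = 0.00553). The DMSO call was lost without the 6 arrays (-2.50, adjusted p = 0.0517) and in 5 of the 6 fits with 1 DMSO array left out, where the difference ran from -2.50 to -2.43.

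ATF3 in COLO668 read 11.33 and 10.95 at day 2, 8.87 and 9.01 at day 4, and 8.98 and 11.54 at day 7 in 552A cells. In DMSO cells it read 11.26 and 10.93 at day 2, 9.09 and 9.19 at day 4, and 10.84 and 10.42 at day 7. Day 4 was lowest in DMSO cells, and in 552A cells 1 day 7 array was as low as day 4. The differences were -1.76 (adjusted p = 9.19e-05) in 552A cells and -1.73 (adjusted p = 0.000453) in DMSO cells, and both calls were kept with each array left out. Without 552A day 7 replicate 2, an array of high ACTB ratio, the 552A difference was -1.12 (adjusted p = 0.000343), and without the 6 arrays the differences were -1.12 in 552A cells and -1.62 in DMSO cells. Both calls were lost with COLO668 fitted alone (adjusted p = 0.419 in 552A cells and 0.919 in DMSO cells). DUSP1 gave -0.98 in 552A cells (adjusted p = 0.00492) and -1.07 in DMSO cells (adjusted p = 0.00580), and both were lost without either day 4 array of their arm (-0.90 and -1.05 in 552A cells, -1.01 and -1.13 in DMSO cells). The DUSP1 call in 552A cells was also lost without day 7 replicate 2 (-0.75). JUNB (-1.11, adjusted p = 0.000540) and FOSB (-1.31, adjusted p = 0.00348) were called in COLO668 552A cells, and were -0.79 (adjusted p = 0.0773) and -1.07 (adjusted p = 0.0773) in DMSO cells. Both 552A calls were lost without 552A day 4 replicate 1 (-0.94 for JUNB and -1.29 for FOSB), and that on FOSB also without 552A day 4 replicate 2 (-1.34) or day 7 replicate 2 (-0.78). Without the 6 arrays DUSP1 was -0.75 in 552A cells and -1.14 in DMSO cells, and in 552A cells JUNB was -0.96 and FOSB -0.78, each called.

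In NCI-H446 the lead probe set of FOS read 8.51 and 8.92 at day 2, 8.18 and 8.28 at day 4, and 10.82 and 10.80 at day 7 in 552A cells. In DMSO cells it read 8.82 and 7.91 at day 2, 7.71, 7.65 and 7.05 at day 4, and 10.57 and 10.66 at day 7. Day 7 stood above both earlier days in both arms. Every day 4 array lay below the day 2 arrays of its arm, by a smaller gap. Day 4 was not called in 552A cells (-1.53, adjusted p = 0.101, 0.801% of all called) and was lower in DMSO cells (-2.02, adjusted p = 0.00652, 2.13% of all called), a call lost without DMSO day 2 replicate 1 (-1.79, adjusted p = 0.0555). DUSP1 was -0.63 in 552A cells, not called, and -1.04 in DMSO cells (adjusted p = 0.00132). In DMSO cells it read 10.25 and 10.04 at day 2, and 10.18, 9.25 and 9.54 at day 4, which overlapped. At day 7 it read 11.20 and 11.29. Days 2 and 4 also overlapped for IER2 in DMSO cells. Without the array of narrow range and the other 5, FOS was -2.11 and DUSP1 -0.84 in DMSO cells, both called.

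IER2 in SHP-77 read 12.75 and 12.58 at day 2, 12.04 and 11.95 at day 4, and 13.74, 13.68, 13.00 and 12.96 at day 7 in 552A cells, and 12.71 and 12.70, 11.73 and 11.66, and 13.28 and 13.05 at those days in DMSO cells. Day 4 did not overlap the other days. It was lower by 1.01 in 552A cells (adjusted p = 3.47e-05) and by 1.24 in DMSO cells (adjusted p = 1.32e-06), and both calls were kept in every fit with 1 SHP-77 array left out. Without the 6 arrays it was -0.83 in 552A cells and -1.19 in DMSO cells, both called, and with SHP-77 fitted alone the 552A call was lost (adjusted p = 0.0704). In COLO668 IER2 was -0.75 in 552A cells (adjusted p = 0.00530, -0.62 without the 6 arrays) and -0.64 in DMSO cells (adjusted p = 0.0757). EGR1 by 201693_s_at read 10.70 and 9.96 at day 2, 8.57 and 8.25 at day 4, and 12.42, 12.33, 10.81 and 10.77 at day 7 in 552A cells of SHP-77, with every day 4 array the lowest. Its calls at day 4 in both arms were likewise kept in every such fit, and were -2.15 in 552A cells and -3.06 in DMSO cells without the 6 arrays.

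By line, lower calls numbered 6 in 552A cells and 12 in DMSO cells of SHP-77, 10 and 5 in COLO668, and 2 and 6 in NCI-H446. NCI-H526, NCI-H510 and NCI-H146 had none in either arm, where 0.0473% in 552A cells and 0% in DMSO cells of NCI-H526, 0.00338% in both arms of NCI-H510 and 0% in both arms of NCI-H146 were called over all probe sets. The 12 in SHP-77 DMSO cells included all 4 JUN probe sets, and the 1 higher call was DUSP1 201044_x_at in the same cells (0.71, adjusted p = 0.00769), where the lead DUSP1 probe set moved by 0.24 and was not called. FOSL2, called in SHP-77 DMSO cells at -0.55 (adjusted p = 0.0261), and JUND, called there at -0.40 (adjusted p = 0.0222), were the smallest of the called lead differences in that line. With those 6 arrays left out FOSL2 was -0.54 (adjusted p = 0.0243), JUND -0.26 and not called (adjusted p = 0.0651), the 4 JUN probe sets -0.85 to -0.51, all called, and DUSP1 201044_x_at 0.56 (adjusted p = 0.0265). With the ACTB signal as a covariate none of these 7 probe sets was called. FOS was -1.73 in 552A cells and -1.94 in DMSO cells of NCI-H510 and -1.17 and -1.39 in NCI-H146, not called, and -0.23 and 0.12 in NCI-H526.

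The median of the 10 lead probe sets was -0.66 in 552A cells and -0.69 in DMSO cells of SHP-77, beside 0.00 and 0.03 over all probe sets tested, and -1.04 and -0.93 in COLO668, beside 0.01 and 0.02. The ACTB 3′ over 5′ signal moved along with the days in SHP-77, with group means of 0.064, 0.0015 and 0.540 at days 2, 4 and 7 in 552A cells and 0.185, -0.035 and 1.00 in DMSO cells. In COLO668 it was 0.569, 0.299 and 0.965 in 552A cells and 0.552, 0.223 and 0.703 in DMSO cells, lowest at day 4. In NCI-H446 it lay between -0.056 and 0.116 at every day. With that signal as a covariate the lower calls numbered 16 in 552A cells and 19 in DMSO cells.

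**Figure D4:**
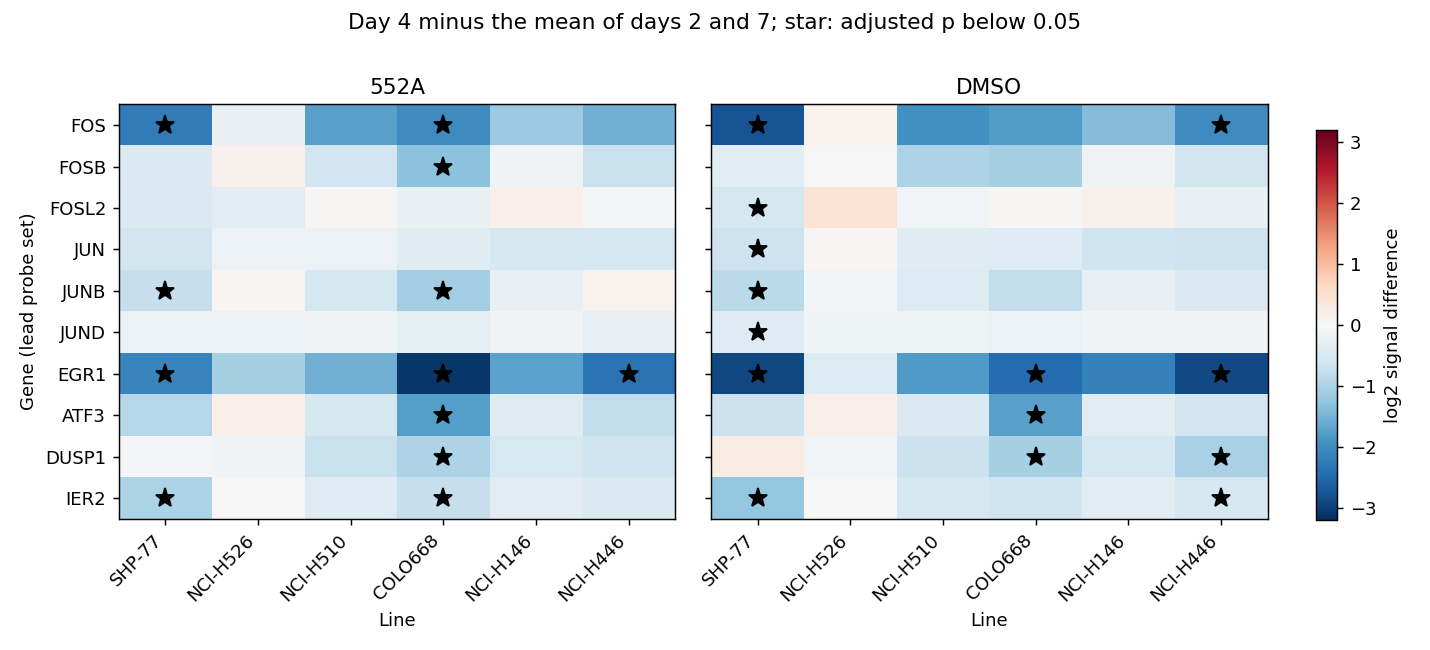
Heat maps of day 4 minus the mean of days 2 and 7 on the log2 scale for the lead probe set of each gene (rows) in each of 6 lines (columns), 552A cells left and DMSO cells right. Blue marks a lower level at day 4 and stars an adjusted p below 0.05, which fall in SHP-77, COLO668 and NCI-H446, with EGR1 in COLO668 lowest at -3.11 in 552A cells.

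Between days 2 and 7 of DMSO culture, 2 of 156 tests were higher at day 7 and 1 lower, against 2.05% of all tests called. FOS was 4.76-fold higher at day 7 in NCI-H446 (adjusted p = 0.0450), where 0.189% of all were called, and DUSP1, with 11.20 and 11.29 at day 7 and 10.25 and 10.04 at day 2, was higher by 1.10 (adjusted p = 0.0179). Both calls were lost with any 1 of the 4 arrays left out, where FOS ran from 1.80 to 2.70 and DUSP1 from 0.99 to 1.21. FOSB in NCI-H510 read 7.36 and 7.16 at day 7 and 8.62 and 9.04 at day 2, and it fell by 1.57 (adjusted p = 0.00454, 0.385% of all called). That call was lost without DMSO day 2 replicate 2 (-1.36, adjusted p = 0.11) or day 7 replicate 2 (-1.47, adjusted p = 0.153).

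The spread between arrays of 1 group was wide for these genes. The residual SD was 0.68 for EGR1, 0.55 for FOS, 0.33 for ATF3, 0.31 for FOSB, 0.27 for JUN, 0.24 for DUSP1, 0.23 for JUNB, 0.19 for FOSL2, 0.18 for IER2 and 0.13 for JUND. Over all probe sets tested the median was 0.137, the 90th percentile 0.219 and the 99th 0.337. Of the 26 probe sets, 21 were above the median of all and 11 above the 90th percentile, and of the 10 lead probe sets 9 and 7. JUND alone among the lead probe sets was below the median.

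**Figure D5:**
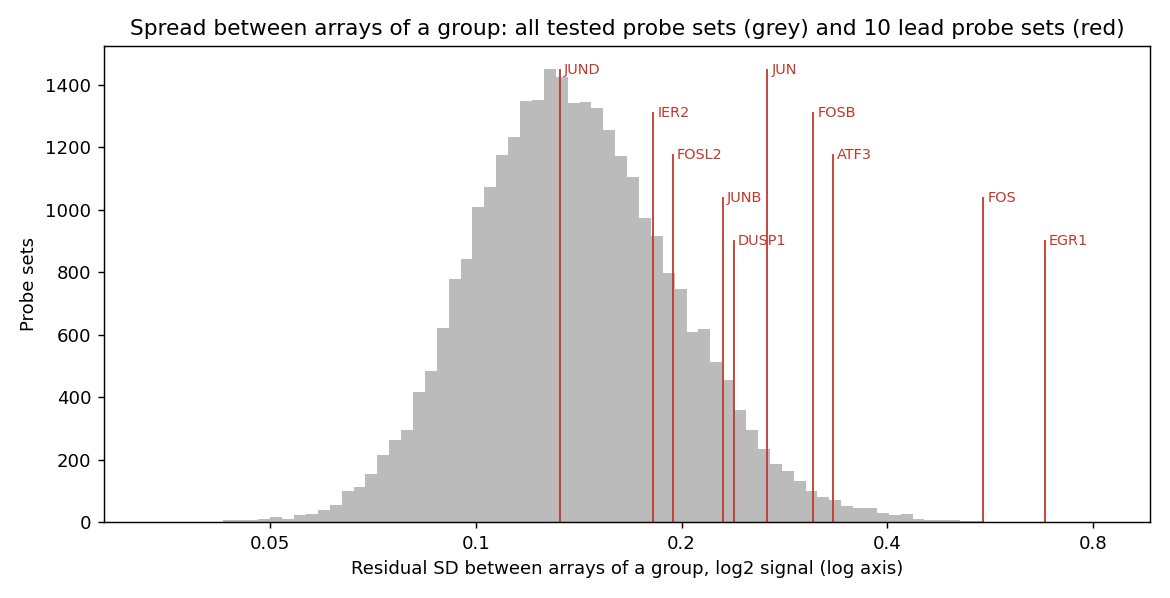
Histogram of the residual SD between arrays of a group (log axis, log2 signal) for all 29598 probe sets tested, with red lines at the 10 lead probe sets. JUND (0.13) lies near the peak, and FOS (0.55) and EGR1 (0.68) lie beyond the 99th percentile of 0.337.

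The SD within a group was above the 99th percentile of all probe sets in 14 of 42 groups for FOS and in 19 for EGR1. FOS at day 7 read 11.48 and 9.57 in 552A cells and 11.32 and 9.62 in DMSO cells of NCI-H510, and 9.58 and 8.21 in 552A cells and 9.28 and 7.43 in DMSO cells of NCI-H146. In both lines replicate 1 was high and replicate 2 low in both arms, and no label ties the numbers to a shared culture or day. EGR1 in NCI-H526 552A cells at day 7 read 6.97 and 10.30, an SD of 2.35, beside 8.13 and 6.89 in DMSO cells. In the H2171 DMSO group the SD was 1.65 for FOS and 1.65 for EGR1.

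The genes varied together within groups. Over the deviations of the 88 arrays from their group means, the lead probe set of FOS had a Pearson r of 0.81 with EGR1, 0.78 with IER2 and 0.71 with DUSP1, the 3 highest among the lead probe sets of 15351 other genes. Its r was 0.59 with JUN (rank 8), 0.51 with ATF3 (rank 27), 0.45 with FOSB (rank 64), 0.43 with JUNB (rank 71), 0.25 with FOSL2 (rank 696) and 0.10 with JUND (rank 2946). Outside the 10 genes, HNRNPA1 (0.69), EID3 (0.62), GADD45A (0.60), RPL36A (0.60) and CCNL1 (0.59) were most like FOS. Over the 21 differences between 552A and DMSO, EGR1 was again first (0.84). TAF15, SDCCAG8, MALAT1, HNRNPK and KRABD5 followed from outside the 10 genes at 0.80 to 0.73. By Spearman rank correlation EGR1 was at 0.77, and these genes, in that order, at 0.39, 0.49, 0.56, 0.40 and 0.26. One of the 21 is the H2171 FOS difference of 2.02, with its low DMSO array, far from most others. Arrays of a group share a line, a day and RNA handling, so these are descriptions of 1 set of libraries, given without a p.

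Levels in DMSO cells at day 4 differed between the 9 lines for 22 of the 26 probe sets by the limma F test, where 96.7% of all probe sets were called. FOS was highest in COLO668 (9.74 ± 0.10, SD, n = 2), then SHP-77 (9.48 ± 0.12), NCI-H510 (9.30 ± 0.41), H69 (8.77), H1417 (8.60 ± 0.26), H2171 (8.02 ± 1.65), NCI-H146 (7.59 ± 0.38), NCI-H446 (7.47 ± 0.36, n = 3) and NCI-H526 (6.93 ± 0.14). No neighbours in that order passed the test, and 17 of 36 pairs of lines did, where 60.2% of pairs were called over all probe sets. EGR1 ran from 10.39 ± 0.35 in NCI-H510 to 6.77 ± 0.65 in NCI-H446, again with no neighbours apart and 18 pairs called. That NCI-H446 group holds the array of narrow range, which read 6.13 beside 7.44 and 6.74, and NCI-H526 was next lowest at 6.89.

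FOSL2 had 31 of 36 pairs called, the most of the 10 lead probe sets. It was highest in H2171 (9.69 ± 0.08), above COLO668 (9.004 ± 0.13, adjusted p = 0.00132 between neighbours), then SHP-77 (8.86 ± 0.06), above NCI-H146 (8.31 ± 0.14, adjusted p = 0.0111), H69 (7.997 ± 0.10), H1417 (7.87 ± 0.26) and NCI-H446 (7.85 ± 0.43). NCI-H510 (7.35 ± 0.01) lay below NCI-H446 (adjusted p = 0.0105), and NCI-H526 (6.05 ± 0.07) below NCI-H510 (adjusted p = 3.39e-08). The neighbours COLO668 and SHP-77, and the 4 lines between NCI-H146 and NCI-H446, did not differ from the next beyond their spread.

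NCI-H526, the POU2F3-high line, was lowest for FOS, FOSL2, JUNB and JUND. For JUND it stood at 11.62 ± 0.05, below SHP-77 at 12.69 ± 0.07 (adjusted p = 5.65e-10), while the other 8 lines ran up to 13.49 ± 0.02 in H2171 without a gap between neighbours that passed. H69 was highest for JUNB (10.64 ± 0.09, next SHP-77 at 9.81, adjusted p = 0.00109) and for IER2 (12.86). SHP-77 was highest for DUSP1 (11.91 ± 0.01), above H2171 at 10.67 ± 0.34 (adjusted p = 6.01e-06), and COLO668 lowest at 8.94 ± 0.08. ATF3 ran from 10.85 ± 0.22 in H2171 to 7.49 ± 0.24 in NCI-H146 with 24 pairs called, and JUN from 10.51 ± 0.05 in COLO668 to 8.83 ± 0.43 in H1417 with 18. FOSB ran from 7.06 in NCI-H510 to 6.79 in SHP-77 and had no pair called.

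Genes around these in the pathway were described through 4 lists, counted on the 552A response averaged over days in each of 9 lines, where 8.27% of all tests were called. Of 20 other immediate early genes tested, 7 had a call, 14 calls higher and 3 lower in 180 tests (9.44%). SGK1, a serum-induced kinase, was higher in 6 lines, with 1.23 in NCI-H510 (adjusted p = 9.04e-16), 1.17 in H1417, 1.09 in NCI-H146, 0.68 in H69, 0.60 in NCI-H446 and 0.49 in COLO668. IER5 was higher in COLO668 (0.59), NCI-H510 (0.55) and NCI-H526 (0.21), and the matrix protein gene CCN1 in COLO668 (0.68) and NCI-H446 (0.66). FOSL1, which encodes the FOS relative FRA1, and the orphan receptor NR4A1 had no call, and EGR2 did not pass the filter.

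Of 10 other basic leucine zipper partners tested, 6 had a call, 7 calls higher and 2 lower (10%). JDP2, a repressor of AP-1, was higher in H1417 (1.56) and NCI-H510 (0.98), MAF in H1417 (0.88) and NCI-H510 (0.51), and ATF2 in NCI-H526 (0.38) and COLO668 (0.29). Of 18 upstream kinases and factors, 10 had a call, 7 higher and 10 lower (10.5%). MAPK9, a JUN kinase, was lower in COLO668 (-0.40), NCI-H526 (-0.29) and NCI-H146 (-0.18), its relative MAPK10 was higher in H1417 (0.58) and lower in NCI-H510 (-0.31) and SHP-77 (-0.22), and the kinase gene RPS6KA5 was higher in H2171 (0.45) and COLO668 (0.27). SRF, the serum response factor, was lower in NCI-H526 (-0.27).

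Feedback inhibitors of the same kinases were called more often, 33 times higher and 6 times lower in 126 tests (31%), on 13 of 14 genes. This list was chosen with earlier results of these data known, so its count is a description only. SPRED1, a RAS pathway inhibitor, was higher in 6 lines, with 1.53 in H1417, 1.22 in NCI-H510, 1.08 in H69, 0.73 in NCI-H526, 0.62 in COLO668 and 0.42 in NCI-H146. DUSP4, a nuclear phosphatase of these kinases, was higher in H1417 (1.20), H69 (0.82), COLO668 (0.72) and NCI-H146 (0.51) and lower in NCI-H446 (-0.40). SPRY2 was higher in H1417 (1.27), COLO668 (0.64), H69 (0.62) and NCI-H510 (0.42), and NAB2, a corepressor of EGR1, in H1417 (0.71) and NCI-H510 (0.28). EGR1 had no called response in any line, and FOS had 1, in H2171. Their residual SDs of 0.68 and 0.55 were wide, so a missing call does not show that a gene did not respond. A link between these inhibitors and FOS or EGR1 was not tested.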

How the data were processed

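The authors deposited log2 probe-set values of 88 arrays, per the labels from total RNA of SCLC lines. No source used here names the program or the normalization behind these log2 values. Columns were matched to arrays by their labels, and no column of another series was present. Probe sets were named through the platform annotation, and 41091 named 1 gene. Of these, 29598 (15352 genes) with at least 1 group mean above the overall median of 7.41 were tested.

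One mean per group was fitted in limma 3.58.1 (R 4.3.3, lmFit and eBayes, 46 residual degrees of freedom), with Benjamini-Hochberg adjustment within each contrast. The shared day 4 test used 1 difference per line. The number of arrays limits the precision. The fits were tested on simulated data.

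The text names all 26 probe sets' genes, the 3 genes of each list called in the most lines, FOSL1, NR4A1, EGR2, SRF and NAB2, and the 5 genes most like FOS by each measure. The members and lists were chosen with earlier results of these data known. Single-array values and the DUSP1 and JUN probe sets named at day 4 were picked after their values were seen. Promoters came from RefSeq (GRCh38). Alternatives were another normalization, other filters, lead probe sets alone, the replicate number as a block, an ACTB covariate, a trend of variance with intensity, each line fitted alone, and arrays or lines left out.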

Additional observations from a re-analysis of the deposited data

Results flagged for a closer look

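The response of FOSL2 to 552A differed between the 6 lines with 3 days (limma F test, adjusted p = 6.52e-09). The lead probe set averaged 1.08 in NCI-H526 and 0.64 in NCI-H510, both higher in 552A cells than in DMSO cells, and -0.03 in SHP-77, 0.07 in COLO668, 0.01 in NCI-H146 and 0.07 in NCI-H446. The response of JUND differed between the same lines (adjusted p = 0.0155), from -0.22 in NCI-H446 to 0.13 in NCI-H510, with no line called on its own. No array of the single group large enough for a test of outlying arrays, SHP-77 552A at day 7, stood apart on any of the 26 probe sets. FOS there read 13.19, 13.31, 11.93 and 11.95, a split into 2 pairs, which a search for 1 outlying array cannot show. The higher pair is the 2 arrays with a high ACTB ratio.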

How the results depend on the processing

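Counts of calls on the 26 probe sets moved by over 1.5 times in these cases. Quantile normalization gave 7 lower calls per line (3 as reported). Without a filter on dim probe sets, DMSO day 7 against day 2 gave 1 higher call (2). A stricter filter left 20 probe sets and no higher DMSO call at day 4 (1). With lead probe sets alone there were 5 higher and 0 lower calls per line and day (12 and 4), 4 and 0 per line (10 and 3), 0 higher and 13 lower DMSO calls at day 4 (1 and 23), 2 responses that differed between lines (7) and 9 DMSO levels that differed (22), as fewer probe sets were counted. The 552A and DMSO arrays share replicate numbers, and the same-number correlation was above 0.1 in 10 of 21 settings (-0.54 to 0.53). With 2 arrays in most groups these values cannot decide whether the numbers pair the arrays. The main fit used no pairing. With the replicate block, higher calls were 25 per line and day and 19 per line. Without the 6 arrays in doubt, calls were 22 higher and 11 lower per line and day, 21 and 15 per line, 9 and 6 for DMSO day 7 against day 2, and 12 responses differed, while the median residual SD over all probe sets fell to 0.114. Leaving those arrays out also raised the share of all probe sets called in most settings, as from 9.35% to 16.2% in NCI-H526 at day 7. That share fell in SHP-77 at day 7, and from 12.6% to 3.55% in NCI-H446 at day 4. No such share is given for the replicate block. The ACTB covariate gave 5 lower calls per line, 2 lower for DMSO day 7 against day 2 and 0 higher DMSO calls at day 4. Each line fitted alone gave 22 higher calls per line and day and 20 per line, while 36 of the 74 named calls were lost. The cause of these moves was not tested, apart from the fewer probe sets. With each array left out, higher and lower calls ran over 10 to 19 and 3 to 6 per line and day, 8 to 13 and 2 to 7 per line, 0 to 4 and 0 to 2 for DMSO day 7 against day 2, 0 to 1 and 12 to 24 at day 4 in 552A cells, and 0 to 1 and 13 to 31 at day 4 in DMSO cells. The 19 higher calls came without NCI-H446 DMSO day 4 replicate 2. Responses that differed between lines ran from 7 to 10, and DMSO levels that differed from 22 to 23. The shared day 4 test called 0 in every alternative run, each line left out included. No call changed direction, and of 921 named values with 1 array left out 159 lost their call. Most groups had 2 arrays, and the residual SDs of FOS and EGR1 were 0.55 and 0.68.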
